A study of Mus musculus with 9 samples.

Results

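The 10 genes described here encode amino acid transporters of the renal proximal tubule, the nephron segment that takes filtered amino acids back into the blood. They are Slc6a19, Slc6a18, Slc3a1, Slc7a9, Slc7a13, Slc1a1, Slc7a7, Slc7a8, Slc3a2 and Slc38a2, picked by name out of the 55359 genes of a table of raw RNA-seq counts. The list was drawn up with earlier fold changes of these same libraries in view, Slc6a19 and Slc7a7 among them. The fold changes of the 10 genes, and the counts of how many of them passed the test over all genes, are therefore a description and support nothing. All other gene lists below were also chosen with earlier results known, and their fold changes and test results are a description too.

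Whole kidneys of mice were sequenced in 9 libraries, 3 in each of 3 groups. In HFD-STZ DHZ and HFD-STZ vehicle, mice aged 6 weeks were started on a diet rich in fat (HFD) that drew 49.0% of its calories from fat, 29.23% from carbohydrate and 24.20% from protein. On days 60 and 63 they received 2 injections of streptozotocin (STZ), which destroys insulin-producing beta cells, at 30 mg/kg each. Fasting blood glucose was tested on day 65, after which the HFD-STZ DHZ mice were dosed by mouth for 2 weeks with dehydrozingerone (DHZ), a phenolic compound of ginger, at 50 mg/kg. NCD vehicle mice started at the same age on a normal calorie diet (NCD) with 11.32% of calories from fat, 63.0% from carbohydrate and 22.48% from protein, and had neither STZ nor DHZ. Groups follow the sample titles, because the label for treatment lists the compound even for vehicle and control libraries. The labels do not say what the vehicle was, that each library came from a separate animal, or the sex and strain of the mice. P-values therefore cover no more than library-to-library spread, part of which may be technical. Every group held libraries with and without transcripts of Y-linked genes (given below), so the libraries of a group did not all come from the same animal. Each library carries a batch label of its own, so that no comparison within a batch and no fit with a batch term was possible, and batch cannot be told apart from library.

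Amino acids enter proximal tubule cells through the brush border and leave through the basolateral membrane. At the brush border, sodium-coupled carriers such as Slc6a19 take up neutral amino acids, Slc1a1 takes up acidic ones, and the exchanger made of the heavy chain Slc3a1 and the light chain Slc7a9 takes up cystine and basic ones. At the basolateral side the heavy chain Slc3a2 pairs with the light chains Slc7a7 and Slc7a8, which hand basic and neutral amino acids on towards the blood. In humans, loss of SLC6A19 causes Hartnup disorder, loss of SLC3A1 or SLC7A9 causes cystinuria, and loss of SLC7A7 causes lysinuric protein intolerance.

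Total counts per library were 15.1 to 47.5 M (M stands for mega), of which 39.2% to 60.4% came from mitochondrially encoded genes and 2.13 to 15.2 M from nuclear protein-coding genes. Unprocessed pseudogenes made up a further 19.1% to 26.2%. HFD-STZ vehicle replicate 2 stood apart, with the highest mitochondrial share and the fewest nuclear protein-coding counts. Transcripts of Y-linked genes summed to between 84.7 and 112 CPM in 4 libraries (HFD-STZ DHZ replicate 3, HFD-STZ vehicle replicates 2 and 3, and NCD vehicle replicate 1), and to at most 0.128 CPM in the other 5, where Xist was high. CPM are counts per M counts of library size, scaled with TMM (trimmed mean of M values). The TMM factors ran from 0.327 in HFD-STZ vehicle replicate 2 to 1.63 in NCD vehicle replicate 3. All 16 genes of a list of proximal tubule markers passed the filter on low counts, as did all 10 transporter genes, whose lowest count in any library was 15, for Slc7a13. In whole tissue, fewer cells of a type and less RNA per cell cannot be told apart.

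Promoter sequences from RefSeq (mouse build GRCm38.p6) are shown first, for the pair of genes that were low together in HFD-STZ vehicle, Slc6a19 and Slc7a7. A stretch is also shown for Slc3a1, the gene of the list with the letters TATAAA near a transcription start. A window ran from 250 bases before to 50 bases after a transcription start and was 300 bases long; 8 of the 10 genes had 13 such windows, and Slc6a18 and Slc7a13 had none. Both strands were searched for TATAAA, the core of the TATA box, an element that positions the transcription start in some promoters. It was in 4473 of 32851 mouse promoter windows (13.6%). Among the transporter genes it was in 1 window, that of Slc3a1, the heavy chain of the cystine exchanger. The bases after this start site were not found in the first part of any Slc3a1 transcript of the annotation used. Capitals mark the match nearest to the start site, which begins at position −18 from it (chr17:85028303-85028360, plus strand) and overlaps a match on the opposite strand.
Slc3a1: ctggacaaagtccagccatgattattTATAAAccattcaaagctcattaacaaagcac
The window of Slc6a19 (chr13:73692587-73692886, minus strand) and the second of 5 windows of Slc7a7 (chr14:54417653-54417952, minus strand) held no TATAAA on either strand and are printed whole without capitals.
Slc6a19: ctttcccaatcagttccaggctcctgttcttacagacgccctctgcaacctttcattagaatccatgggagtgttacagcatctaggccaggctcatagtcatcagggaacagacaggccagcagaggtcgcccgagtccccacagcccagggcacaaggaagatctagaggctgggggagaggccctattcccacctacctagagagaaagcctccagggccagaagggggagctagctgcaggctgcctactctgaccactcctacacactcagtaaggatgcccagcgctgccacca
Slc7a7: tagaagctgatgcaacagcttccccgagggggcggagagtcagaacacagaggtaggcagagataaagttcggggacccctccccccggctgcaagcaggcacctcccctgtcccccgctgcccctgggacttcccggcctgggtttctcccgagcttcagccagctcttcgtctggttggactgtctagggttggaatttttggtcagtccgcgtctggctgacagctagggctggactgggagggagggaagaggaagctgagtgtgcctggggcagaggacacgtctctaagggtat
A match is only these letters, and says nothing about how a gene is controlled. The RNA of Hnf4a, a transcription factor of proximal tubule cells, averaged 133 ± 20.2 CPM in HFD-STZ DHZ, 105 ± 37.6 CPM in HFD-STZ vehicle and 99.3 ± 7.96 CPM in NCD vehicle (SD, n = 3 each), and was called in no comparison.

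Of the brush-border carriers, Slc6a19 was low in every HFD-STZ vehicle library. Slc6a19, the main sodium-coupled carrier of neutral amino acids, stood at 21.2, 14.3 and 17.2 CPM in HFD-STZ DHZ, at 5.58, 5.53 and 3.57 CPM in HFD-STZ vehicle and at 17.9, 15.9 and 14.4 CPM in NCD vehicle. The 3 HFD-STZ vehicle libraries lay below all 6 others, and the HFD-STZ DHZ and NCD vehicle libraries overlapped. The log2 fold change was 1.86 (SE 0.24) for HFD-STZ DHZ versus HFD-STZ vehicle, or 3.63-fold, and −1.73 (SE 0.24) for HFD-STZ vehicle versus NCD vehicle. These comparisons share the HFD-STZ vehicle libraries, so a low value there enters both with opposite sign. HFD-STZ DHZ versus NCD vehicle gave 0.13 (SE 0.22).

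Its neighbour on chromosome 13, Slc6a18, did not follow it. Slc6a18 encodes a related carrier of glycine and other neutral amino acids in mouse, and no other gene lies between the pair in the reference annotation. It had 207, 263 and 99.9 CPM in HFD-STZ DHZ, 223, 105 and 231 CPM in HFD-STZ vehicle and 152, 277 and 192 CPM in NCD vehicle, and all groups overlapped. Its log2 fold changes were 0.02, −0.15 and −0.13 (SE 0.40 each) for HFD-STZ DHZ versus HFD-STZ vehicle, HFD-STZ vehicle versus NCD vehicle and HFD-STZ DHZ versus NCD vehicle. Per length, the ratio of Slc6a18 to Slc6a19 averaged (geometric mean) 11.5 in HFD-STZ DHZ, 41.5 in HFD-STZ vehicle and 14.2 in NCD vehicle. The ratio was higher in all 3 HFD-STZ vehicle libraries than in the 6 others, which restates the low Slc6a19 values there.

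**Figure D1:**
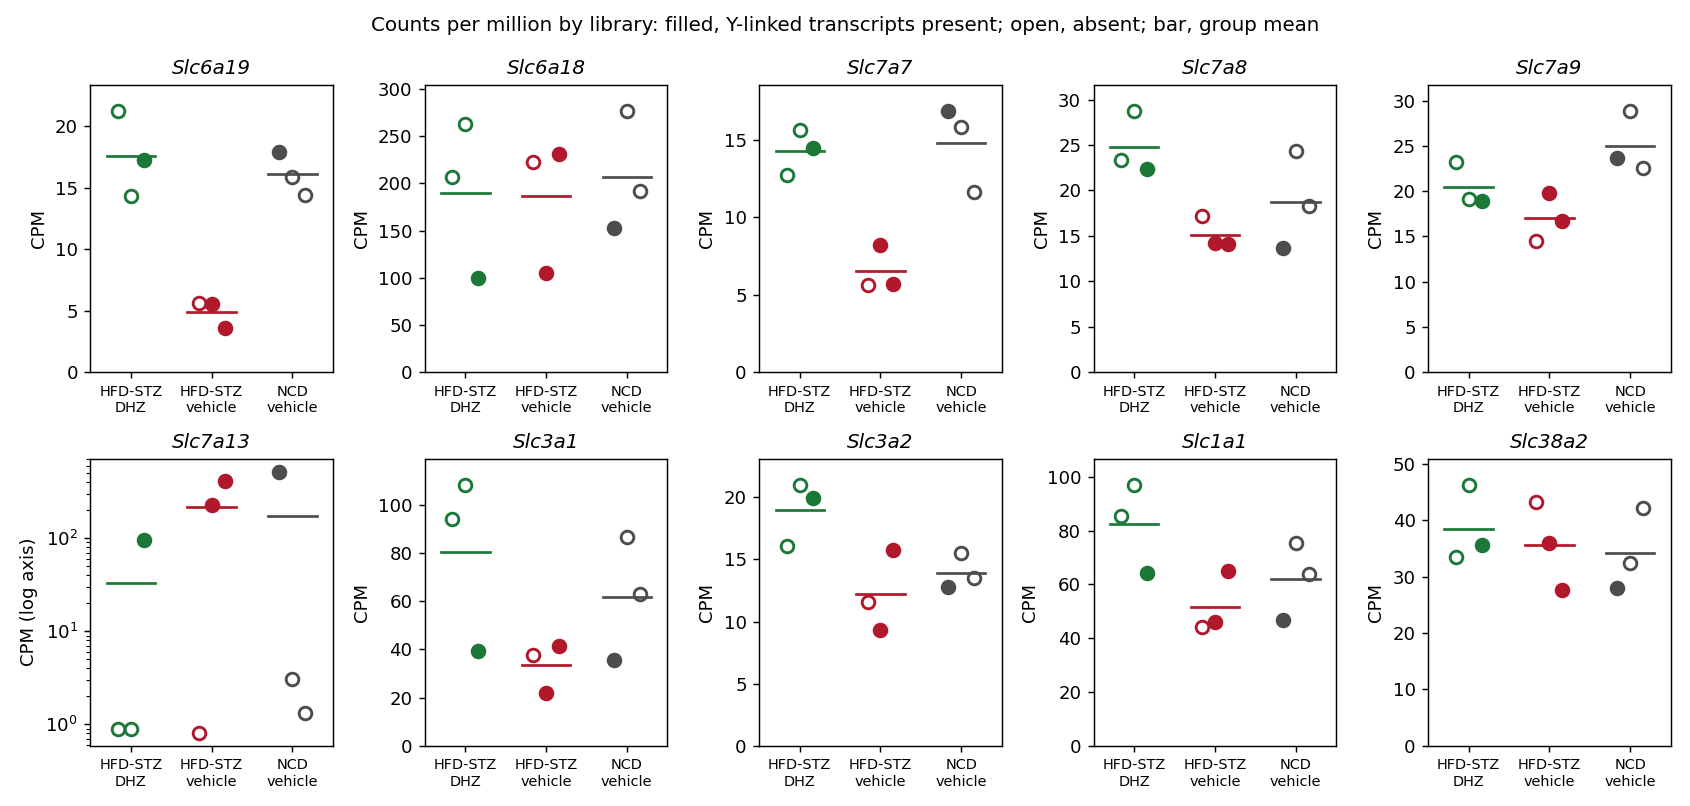
CPM (vertical axes, a log axis for Slc7a13 only) of the 10 transporter genes in each library, with HFD-STZ DHZ, HFD-STZ vehicle and NCD vehicle along the horizontal axis. Points are libraries, filled where Y-linked transcripts were present, and bars are group means of 3 libraries; Slc6a19 and Slc7a7 are lowest in the 3 HFD-STZ vehicle libraries, and Slc7a13 is high only in the 4 filled points.

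Slc3a1, the heavy chain of the cystine and basic amino acid exchanger, was unevenly distributed within groups. It had 94.0, 108 and 39.4 CPM in HFD-STZ DHZ, 37.7, 21.8 and 41.3 CPM in HFD-STZ vehicle and 35.6, 86.8 and 63.1 CPM in NCD vehicle. HFD-STZ DHZ replicates 1 and 2 were the highest of the 9 libraries, while replicate 3 lay within the HFD-STZ vehicle range. The log2 fold change was 1.26 (SE 0.41) for HFD-STZ DHZ versus HFD-STZ vehicle and −0.87 (SE 0.41) for HFD-STZ vehicle versus NCD vehicle. Exons of Slc3a1 overlap those of Prepl on the opposite strand, those of Slc7a7 overlap Oxa1l and those of Slc1a1 overlap 4430402I18Rik. Slc6a19 lies across an antisense gene, Slc6a19os, without exon overlap. As the sources used here do not state the strand setting of the counting, the levels of these genes are uncertain to that extent.

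Slc7a9, the light chain that Slc3a1 carries to the brush border, varied less than its partner. It had 23.3, 19.2 and 18.9 CPM in HFD-STZ DHZ, 14.5, 19.8 and 16.7 CPM in HFD-STZ vehicle and 23.6, 28.9 and 22.6 CPM in NCD vehicle. Every HFD-STZ vehicle library was below every NCD vehicle library, with a log2 fold change of −0.56 (SE 0.20), and HFD-STZ DHZ overlapped both. The ratio of Slc7a9 to Slc3a1 per length averaged (geometric mean) 0.234 in HFD-STZ DHZ, 0.441 in HFD-STZ vehicle and 0.365 in NCD vehicle, with overlap between all groups.

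Slc1a1 takes up glutamate and aspartate at the brush border, and cysteine as well. It had 85.6, 97.0 and 64.3 CPM in HFD-STZ DHZ, 44.0, 46.1 and 65.1 CPM in HFD-STZ vehicle and 46.8, 75.2 and 63.7 CPM in NCD vehicle. HFD-STZ DHZ replicates 1 and 2 lay above all other libraries, and replicate 3 just below HFD-STZ vehicle replicate 3. The log2 fold change was 0.67 (SE 0.26) for HFD-STZ DHZ versus HFD-STZ vehicle and −0.26 (SE 0.26) for HFD-STZ vehicle versus NCD vehicle.

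Of the basolateral light chains, Slc7a7 had the pattern nearest to that of Slc6a19. Slc7a7, which exports basic amino acids, had 12.7, 15.6 and 14.5 CPM in HFD-STZ DHZ, 5.58, 8.23 and 5.70 CPM in HFD-STZ vehicle and 16.8, 15.8 and 11.6 CPM in NCD vehicle. The HFD-STZ vehicle libraries were again the 3 lowest of the 9, and the other groups overlapped. Log2 fold changes were 1.15 (SE 0.23) for HFD-STZ DHZ versus HFD-STZ vehicle, −1.20 (SE 0.23) for HFD-STZ vehicle versus NCD vehicle and −0.05 (SE 0.22) for HFD-STZ DHZ versus NCD vehicle.

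Slc7a8, which exchanges neutral amino acids and lies on chromosome 14 with 23 genes between it and Slc7a7, had its highest group mean in HFD-STZ DHZ. It had 23.4, 28.8 and 22.3 CPM in HFD-STZ DHZ, 17.2, 14.2 and 14.1 CPM in HFD-STZ vehicle and 13.7, 24.3 and 18.3 CPM in NCD vehicle. All HFD-STZ DHZ libraries lay above all HFD-STZ vehicle libraries, with a log2 fold change of 0.71 (SE 0.23), while NCD vehicle overlapped both. HFD-STZ vehicle versus NCD vehicle gave −0.31 (SE 0.23).

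Their shared heavy chain Slc3a2, also known as the CD98 heavy chain, had 16.1, 21.0 and 19.9 CPM in HFD-STZ DHZ, 11.5, 9.31 and 15.7 CPM in HFD-STZ vehicle and 12.8, 15.5 and 13.5 CPM in NCD vehicle. HFD-STZ DHZ lay above both other groups without overlap. Its log2 fold change was 0.63 (SE 0.22) against HFD-STZ vehicle and 0.45 (SE 0.22) against NCD vehicle. The ratio of Slc7a7 to Slc3a2 per length averaged (geometric mean) 0.802 in HFD-STZ DHZ, 0.572 in HFD-STZ vehicle and 1.12 in NCD vehicle, and was lower in every HFD-STZ DHZ library than in every NCD vehicle library.

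Slc38a2, a sodium-coupled carrier of small neutral amino acids that cells are known to induce when amino acids run short, showed no ordering of the groups. It had 33.6, 46.3 and 35.7 CPM in HFD-STZ DHZ, 43.3, 36.0 and 27.6 CPM in HFD-STZ vehicle and 27.9, 32.5 and 42.1 CPM in NCD vehicle. All groups overlapped, and the log2 fold changes were 0.11 (SE 0.24) for HFD-STZ DHZ versus HFD-STZ vehicle, 0.06 (SE 0.24) for HFD-STZ vehicle versus NCD vehicle and 0.17 (SE 0.24) for HFD-STZ DHZ versus NCD vehicle.

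Counted over the list, HFD-STZ DHZ versus HFD-STZ vehicle gave 4 of 10 transporter genes called higher (Slc6a19, Slc7a7, Slc7a8 and Slc3a1) and 0 called lower, a call being an adjusted p below 0.05 over all 17179 genes tested. Of all genes tested 10.05% were called higher and 12.05% lower. The HFD-STZ DHZ libraries lay wholly above the HFD-STZ vehicle libraries for 4 of 10 (Slc6a19, Slc7a7, Slc7a8 and Slc3a2), and for 20.9% of all genes tested. The median log2 fold change was 0.65 over the 10 genes and 0.04 over all genes tested. Nothing is read from these counts, since the genes were chosen on this comparison.

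HFD-STZ vehicle versus NCD vehicle gave 1 of 10 transporter genes called, Slc6a19, which was lower. All genes tested gave 9 calls (0.0524%), of which 0.0291% of the genes tested were lower. The groups did not overlap, with HFD-STZ vehicle lower, for 3 of 10 (Slc6a19, Slc7a7 and Slc7a9) and for 6.56% of all genes tested. The medians were −0.28 over the 10 genes and −0.003 over all genes tested.

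HFD-STZ DHZ versus NCD vehicle gave 0 of 10 called, with edgeR's quasi-likelihood test as with DESeq2, and 0 had an unadjusted p below 0.05, where 13.7% of all genes tested were called, 6.31% higher and 7.38% lower. Only Slc3a2 lay wholly above NCD vehicle, as did 22.4% of all genes tested. The median of the 10 genes was 0.15, against 0.006 over all genes tested.

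**Figure D2:**
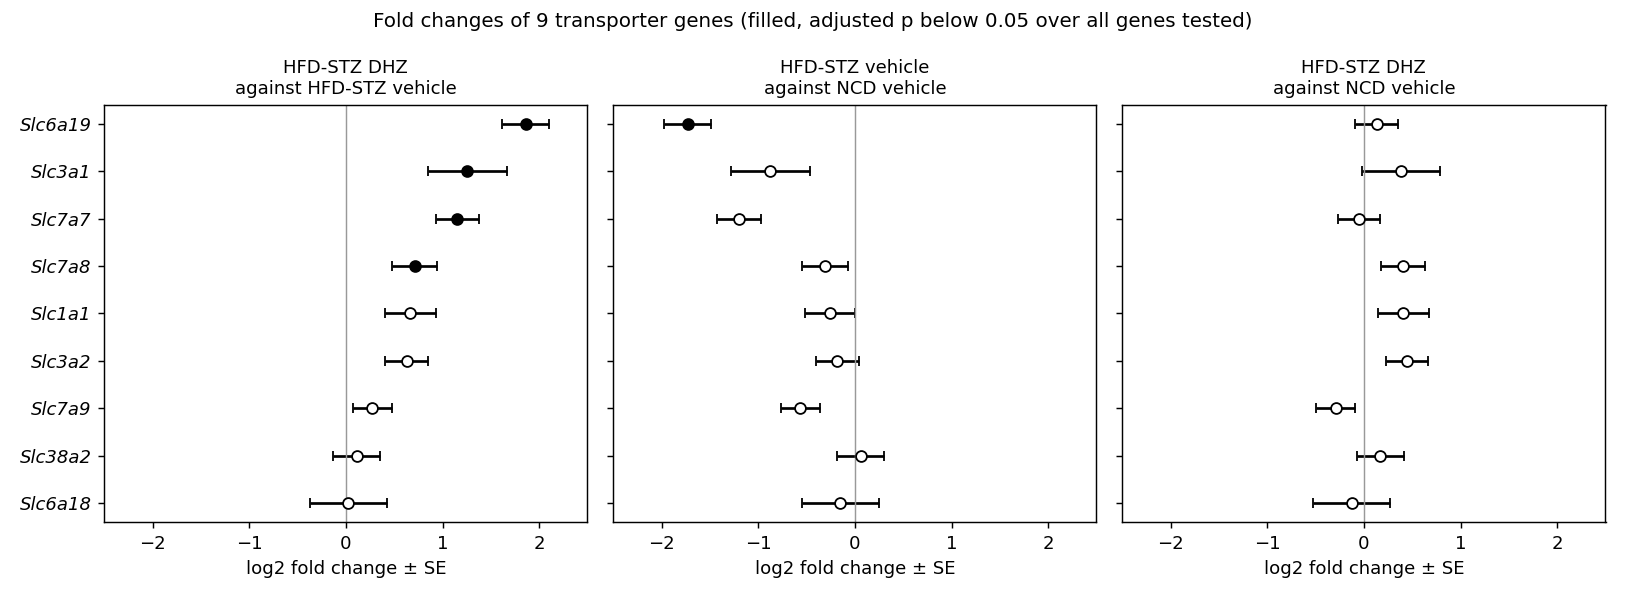
Log2 fold changes with standard errors (horizontal axes) of 9 transporter genes, Slc7a13 left out for its width, for HFD-STZ DHZ versus HFD-STZ vehicle, HFD-STZ vehicle versus NCD vehicle and HFD-STZ DHZ versus NCD vehicle. Filled points were called over all genes tested; Slc6a19 lies farthest from 0 in the comparisons that contain HFD-STZ vehicle, at 1.86 and −1.73, and at 0.13 in the third.

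The calls of these genes across settings are given as a description only, since the genes were chosen on the same values. Slc6a19 and Slc7a7 were called in HFD-STZ DHZ versus HFD-STZ vehicle under all 17 alternative settings or left-out libraries, with log2 fold changes of 1.67 to 2.60 for Slc6a19 and 1.04 to 2.02 for Slc7a7. Slc3a1 was called in 8 of the 17 and Slc7a8 in 5. Both lost their call without HFD-STZ DHZ replicate 1 or 2, any HFD-STZ vehicle replicate or NCD vehicle replicate 3, and with a term for Y-linked transcripts; with only the 2 groups compared both lost it as well. Slc7a8 also lost it without HFD-STZ DHZ replicate 3 and with relative log expression or unscaled library sizes. In HFD-STZ vehicle versus NCD vehicle, Slc6a19 was called in 8 of the 17, and its log2 fold change ranged over −2.40 to −1.53. That call was lost without HFD-STZ DHZ replicate 2 or 3, HFD-STZ vehicle replicate 3 or any NCD vehicle replicate, with unscaled library sizes and with only the 2 groups compared. With library sizes left unscaled the median of all genes itself moved to 0.81 for HFD-STZ DHZ versus HFD-STZ vehicle and to −0.74 for HFD-STZ vehicle versus NCD vehicle, which takes the estimate of Slc38a2 for HFD-STZ vehicle versus NCD vehicle to −0.68, against 0.06 with scaling, and that of Slc7a13 to −0.03, against 0.30.

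**Figure D3:**
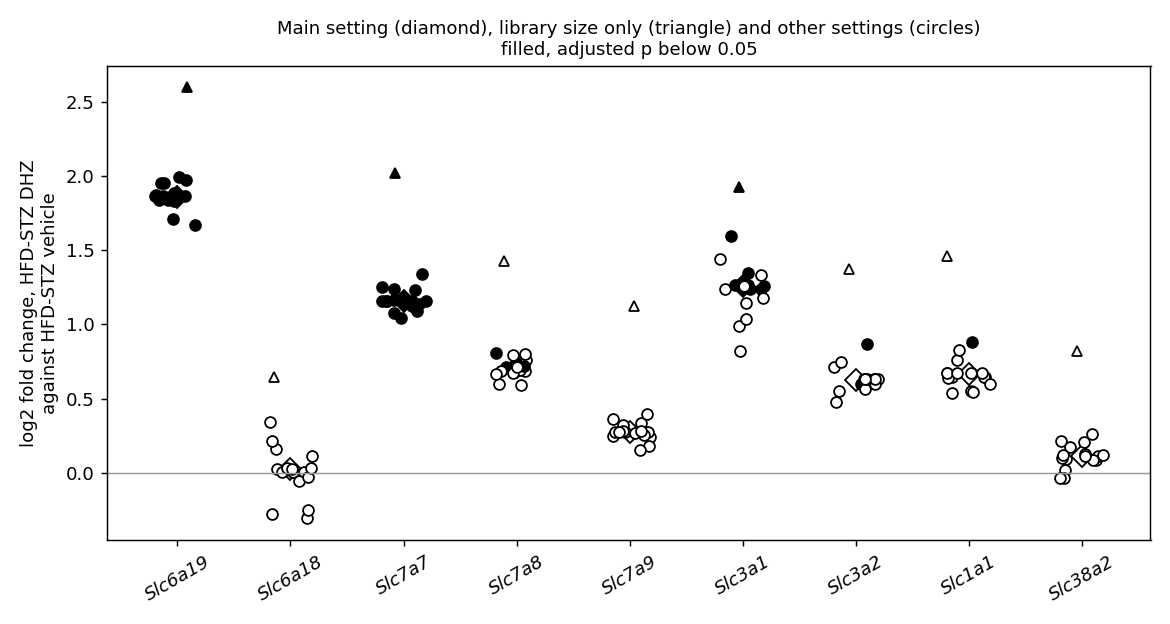
Log2 fold change of 9 transporter genes for HFD-STZ DHZ versus HFD-STZ vehicle (vertical axis) under the main setting (diamonds), with unscaled library sizes (triangles) and under the other 16 settings or left-out libraries (circles). Filled points were called; Slc6a19 and Slc7a7 are filled throughout, Slc3a1 and Slc7a8 in 8 and 5 of the 17 alternatives.

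Slc7a13 stood apart from the other transporter genes, since it followed the Y-linked transcripts and not the groups. It encodes a carrier of acidic amino acids and cystine that joins Slc3a1 in the late, straight part of the mouse proximal tubule, and it is known in mouse kidney as a gene more active in males. It had 0.88, 0.89 and 96.0 CPM in HFD-STZ DHZ, 0.81, 228 and 412 CPM in HFD-STZ vehicle and 516, 3.07 and 1.33 CPM in NCD vehicle. The 4 libraries with Y-linked transcripts held 96.0 to 516 CPM and the 5 without held 0.81 to 3.07 CPM, with no overlap. Among the 4, the HFD-STZ DHZ library was lowest, the 2 HFD-STZ vehicle libraries lay between, and the NCD vehicle library was highest. The log2 fold changes of −2.71 (SE 3.01) for HFD-STZ DHZ versus HFD-STZ vehicle and 0.30 (SE 2.83) for HFD-STZ vehicle versus NCD vehicle stand beside 1 of 3 such libraries in HFD-STZ DHZ, 2 of 3 in HFD-STZ vehicle and 1 of 3 in NCD vehicle.

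Slc7a12, a neighbour of Slc7a13 in sequence family that is known in mouse kidney as a gene more active in females, ran the other way. It had 45.5, 46.4 and 3.52 CPM in HFD-STZ DHZ, 12.0, 0.67 and 1.24 CPM in HFD-STZ vehicle and 3.21, 30.4 and 24.7 CPM in NCD vehicle. The 4 libraries with Y-linked transcripts held 0.67 to 3.52 CPM and the 5 without held 12.0 to 46.4 CPM. Within the 5, HFD-STZ DHZ was highest and the HFD-STZ vehicle library lowest.

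Some of the other transporter genes also leaned with these transcripts. Slc3a1 ranged over 21.8 to 41.3 CPM in the 4 libraries with Y-linked transcripts and 37.7 to 108 CPM in the 5 without, and Slc7a8 over 13.7 to 22.3 CPM and 17.2 to 28.8 CPM. HFD-STZ DHZ over HFD-STZ vehicle was 1.25-fold for Slc3a1 among the libraries with Y-linked transcripts, and 2.69-fold among those without. For Slc1a1 the same ratios were 1.16-fold and 2.07-fold. Slc6a19 gave 3.79-fold with Y-linked transcripts and 3.18-fold without, and Slc7a7 gave 2.08-fold and 2.54-fold. Each of these ratios rests on 3 libraries, 1 in the smaller group, and has no test.

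**Figure D4:**
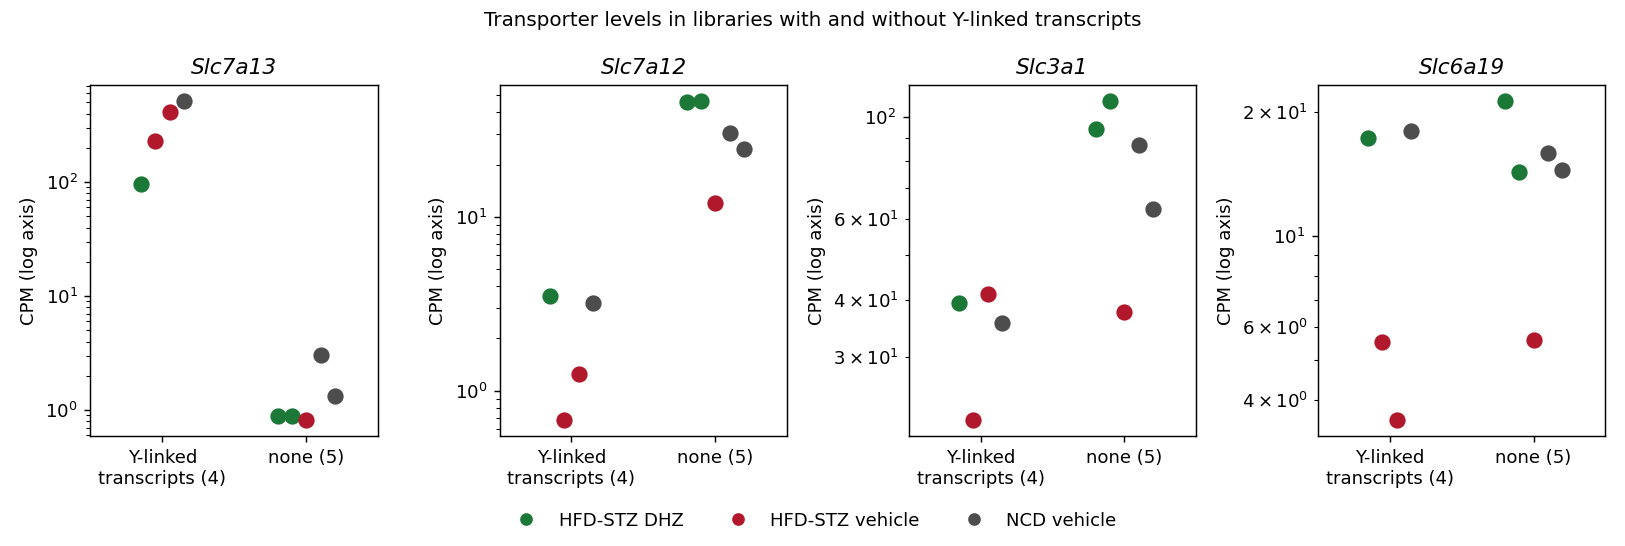
CPM (log axes) of Slc7a13, Slc7a12, Slc3a1 and Slc6a19 in the 4 libraries with Y-linked transcripts and the 5 without, coloured by group. Slc7a13 is at 96.0 or above in the 4 and at 3.07 or below in the 5, while for Slc6a19 the HFD-STZ vehicle libraries are lowest in both sets.

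Compared with each other per length of exon, the 10 genes spanned a wide range of RNA levels. Slc6a18 had the highest median over the 9 libraries, 46.8 CPM per kilobase, followed by Slc3a1 at 18.2, Slc1a1 at 7.78 and Slc7a9 at 7.41. Slc3a2 had 4.40, Slc38a2 4.04, Slc7a7 3.84, Slc7a8 3.65, Slc6a19 2.88 and Slc7a13 1.44 CPM per kilobase. Slc7a13 ranged over 0.38 to 241 CPM per kilobase, so in the library with the most it exceeded every other gene of the list. The ranges over libraries of each neighbouring pair in this order overlapped.

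The genes whose pattern was most like that of Slc6a19 were sought by the root mean square difference of log2 CPM, each gene centred on its own mean over the 9 libraries. Among the 17179 genes tested, the 5 nearest of those whose mean log2 CPM was 1 or more were Smoc2 and Prelp (0.34 each), Mgp and Adgra2 (0.35 each) and Pdgfrb (0.36). Over all genes tested, with no such minimum, Slc7a7 ranked 16th, at 0.41, the nearest of the other transporter genes. Slc6a19 and Slc7a7 were listed with their fold changes in view, so this rank is a description. Slc7a9 ranked 1254th at 0.71, and Slc6a18 10199th at 1.02. Pdgfrb, the receptor of pericytes and fibroblasts for platelet-derived growth factor, averaged 6.66 ± 1.40 CPM in HFD-STZ DHZ, 3.02 ± 0.402 in HFD-STZ vehicle and 7.50 ± 1.08 in NCD vehicle (SD, n = 3 each).

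Markers of other kidney cells differed between the same libraries, in both directions. The summed level of 5 stromal and smooth muscle markers was 55.7 to 109 CPM in HFD-STZ DHZ, 31.2 to 46.2 in HFD-STZ vehicle and 69.9 to 77.7 in NCD vehicle, and 3 of the 5 were called higher in HFD-STZ DHZ versus HFD-STZ vehicle. That of 5 podocyte markers was 67.6 to 87.6, 20.9 to 43.4 and 51.4 to 69.9 CPM in the same groups, with 2 called higher in that comparison. Single podocyte markers went both ways there, 3 with a higher and 2 with a lower estimate (log2 fold changes −0.70 to 2.84). In HFD-STZ DHZ versus NCD vehicle 1 podocyte marker was called higher and 1 lower. The level of 6 leukocyte markers was 54.2 to 96.5, 21.3 to 56.4 and 25.8 to 37.7 CPM, with 3 called higher in HFD-STZ DHZ versus HFD-STZ vehicle. For these and the later lists, 10.05% of all genes tested were called higher in that comparison and 12.05% lower. In HFD-STZ DHZ versus NCD vehicle the shares were 6.31% and 7.38%. There, 3 leukocyte markers and 1 stromal marker were called higher, and 0 of either list lower. Between HFD-STZ vehicle and NCD vehicle 0 markers of these 3 lists were called by edgeR, and 3 stromal, 3 podocyte and 0 leukocyte markers had an unadjusted p below 0.05.

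Tubular injury markers set HFD-STZ DHZ replicate 3 apart, the library of that group with the least Slc3a1 and Slc1a1. The summed level of 5 such markers was 100 CPM there and 13.8 and 18.3 CPM in HFD-STZ DHZ replicates 1 and 2, against 14.97 to 24.9 CPM in HFD-STZ vehicle and 6.81 to 7.22 CPM in NCD vehicle. Havcr1, a membrane protein of injured proximal tubules, had 46.3 CPM in that library and at most 2.59 CPM in the other 8, and Krt20 had 5.99 CPM and at most 0.416 CPM. HFD-STZ DHZ replicate 3 was also the only library of its group with Y-linked transcripts, and Slc3a1 was at 21.8 to 41.3 CPM in all 4 such libraries. Without HFD-STZ DHZ replicate 3 the log2 fold change for HFD-STZ DHZ versus HFD-STZ vehicle was 1.59 for Slc3a1, 0.83 for Slc1a1, 1.88 for Slc6a19 and 1.16 for Slc7a7. Leaving it out removes both traits at once, and the part of either in these values was not tested. Of the 4 injury markers tested, Vcam1 was called higher and Sox9 lower in that comparison, and Sox9 was called higher in both HFD-STZ groups versus NCD vehicle.

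The summed level of 5 white adipocyte markers was 1.76 to 18.3 CPM in HFD-STZ DHZ, 0.270 to 2.87 in HFD-STZ vehicle and 1.28 to 28.6 in NCD vehicle, and Adipoq was at 0 in HFD-STZ DHZ replicate 2 and HFD-STZ vehicle replicate 2. That of 3 distal convoluted tubule markers was 337 to 705 CPM in HFD-STZ DHZ, 729 to 768 in HFD-STZ vehicle and 450 to 558 in NCD vehicle. That of 4 collecting duct markers was 39.8 to 53.1, 53.1 to 79.7 and 57.0 to 79.3 CPM in the same groups. Pvalb, a distal convoluted tubule marker, was called higher in HFD-STZ DHZ versus NCD vehicle (log2 fold change 2.07). Its estimate was also higher versus HFD-STZ vehicle (0.54). For HFD-STZ DHZ versus HFD-STZ vehicle 1 adipocyte marker was called higher (Cidec), and 1 distal convoluted tubule marker (Trpm6) and 1 collecting duct marker (Aqp3) lower. The thick ascending limb markers, 4 in number, summed to 1058 to 2375 CPM in HFD-STZ DHZ, 782 to 1755 in HFD-STZ vehicle and 682 to 1352 in NCD vehicle, with 1 called higher in that comparison (Cldn16). Cldn16 was also called higher, and 1 collecting duct marker lower, in HFD-STZ DHZ versus NCD vehicle. Of 4 intercalated cell and 5 endothelial markers 0 were called by edgeR in any comparison, and at most 2 of either list had an unadjusted p below 0.05 in a comparison. The part of these cells in the transporter values was not tested.

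The proximal tubule markers varied among themselves. Kap, an androgen-responsive gene of mouse proximal tubules, ranged over 3648 to 9452 CPM in the 4 libraries with Y-linked transcripts and 255 to 3249 CPM in the 5 without. Their summed level was 3802 to 7341 CPM in HFD-STZ DHZ, 3315 to 15258 in HFD-STZ vehicle and 6515 to 12343 in NCD vehicle, and without Kap 3405 to 3693, 2649 to 5805 and 3683 to 6429 CPM in the same groups. In HFD-STZ DHZ versus HFD-STZ vehicle 2 of 16 were called higher, the glucose carrier Slc5a2 (log2 fold change 0.98) and the creatine synthesis enzyme Gatm (0.97), 1 was called lower, the bicarbonate carrier Slc4a4 (−1.02), and the median was −0.03. Of all genes tested, 10.05% were called higher there and 12.05% lower. For HFD-STZ vehicle versus NCD vehicle 0 of 16 were called by edgeR, 6 had an unadjusted p below 0.05, and the median was −0.46. The HFD-STZ vehicle libraries lay wholly below NCD vehicle for 4 of 16 (Slc5a2, Slc5a12, Gatm and Miox), and wholly above for 1 (Slc22a8). Of all genes tested, 6.56% lay wholly below. Slc5a2 had a log2 fold change of −1.62 there (SE 0.26, edgeR adjusted p = 0.052). In HFD-STZ DHZ versus NCD vehicle 0 of 16 were called by edgeR, 4 had an unadjusted p below 0.05, and the median was −0.29.

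Collectrin, encoded by Cltrn, carries Slc6a19 and related transporters to the brush border. It had 219, 189 and 194 CPM in HFD-STZ DHZ, 37.6, 96.0 and 96.8 CPM in HFD-STZ vehicle and 128, 122 and 109 CPM in NCD vehicle. The HFD-STZ DHZ libraries lay above all others and the HFD-STZ vehicle libraries below all others. Cltrn was higher in HFD-STZ DHZ versus HFD-STZ vehicle, by a log2 fold change of 1.39 (SE 0.33, edgeR adjusted p = 0.013). As its list was chosen with earlier results known, this is a description. The call was lost without HFD-STZ DHZ replicate 1 (edgeR adjusted p = 0.055). The ratio of Slc6a19 to Cltrn per length averaged (geometric mean) 0.0267 in HFD-STZ DHZ, 0.0210 in HFD-STZ vehicle and 0.0413 in NCD vehicle, and was lower in every HFD-STZ DHZ library than in every NCD vehicle library. Of 4 partners and regulators, Cltrn was the only gene called in any comparison, and the list medians were −0.11 for HFD-STZ DHZ versus HFD-STZ vehicle, 0.02 for HFD-STZ vehicle versus NCD vehicle and −0.08 for HFD-STZ DHZ versus NCD vehicle.

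A wider list of 31 other amino acid transporter genes was read beside these, 27 of which passed the filter. In HFD-STZ DHZ versus HFD-STZ vehicle 2 were called higher, 1 lower and 24 not, with a median of 0.27. Of all genes tested, 10.05% were called higher there and 12.05% lower. In HFD-STZ vehicle versus NCD vehicle 0 were called, with a median of −0.29; DESeq2 called 0 as well, and 3 had an unadjusted p below 0.05 in edgeR. In HFD-STZ DHZ versus NCD vehicle 0 were called higher and 1 lower, with a median of 0.06, beside 6.31% higher and 7.38% lower over all genes tested.

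The genes called higher in HFD-STZ DHZ versus HFD-STZ vehicle were Slc1a4 and Slc16a10. Slc1a4, an exchanger of alanine, serine and cysteine, had 4.26, 6.71 and 5.64 CPM in HFD-STZ DHZ and 1.68, 1.48 and 2.61 CPM in HFD-STZ vehicle (log2 fold change 1.48, SE 0.33, edgeR adjusted p = 0.011). Slc16a10, a basolateral carrier of aromatic amino acids, had 12.1, 10.9 and 10.1 CPM in HFD-STZ DHZ and 5.91, 7.15 and 5.38 CPM in HFD-STZ vehicle (log2 fold change 0.86, SE 0.21, edgeR adjusted p = 0.016). In both genes every HFD-STZ DHZ library lay above every HFD-STZ vehicle library, and above every NCD vehicle library, though neither was called against NCD vehicle.

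Slc6a6, the taurine carrier, fell in HFD-STZ DHZ against both other groups. It had 137, 139 and 162 CPM in HFD-STZ DHZ, 257, 415 and 266 CPM in HFD-STZ vehicle and 316, 269 and 251 CPM in NCD vehicle. The HFD-STZ DHZ libraries lay below all others. The log2 fold change was −1.10 (SE 0.27, edgeR adjusted p = 0.016) against HFD-STZ vehicle and −0.93 (SE 0.27, edgeR adjusted p = 0.039) against NCD vehicle. With unscaled library sizes the change against HFD-STZ vehicle was −0.19 and not called, beside a median of 0.81 over all genes. Without HFD-STZ DHZ replicate 1 or 2 neither Slc16a10 nor Slc6a6 was called against HFD-STZ vehicle, and without replicate 2 Slc1a4 was not called either. The call of Slc6a6 against NCD vehicle was lost without any HFD-STZ DHZ or NCD vehicle replicate, with unscaled library sizes and without the filter. Slc16a10 was not called with unscaled library sizes.

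**Figure D5:**
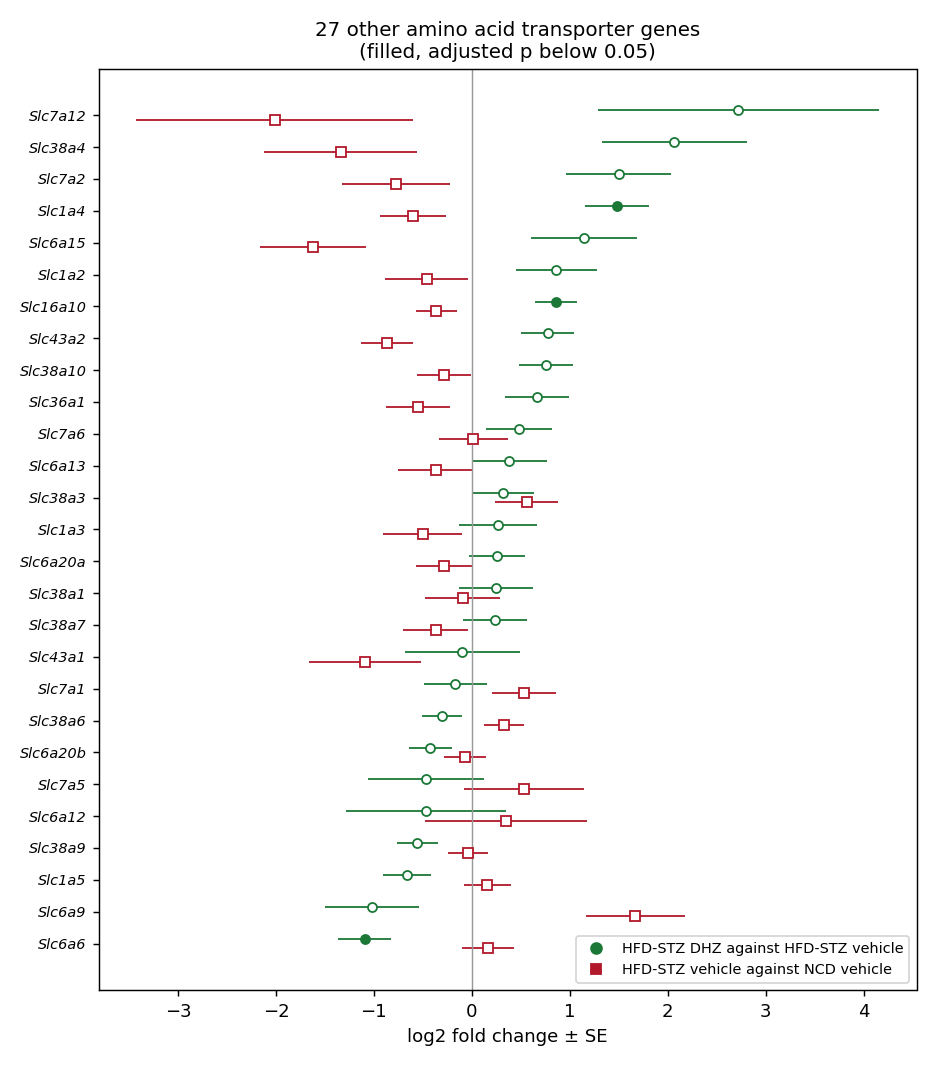
Log2 fold changes with standard errors (horizontal axis) of the 27 tested genes among 31 other amino acid transporters (vertical axis), with circles for HFD-STZ DHZ versus HFD-STZ vehicle and squares for HFD-STZ vehicle versus NCD vehicle. Filled symbols were called over all genes tested: Slc1a4 at 1.48, Slc16a10 at 0.86 and Slc6a6 at −1.10, all among the circles.

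Peptidases of the brush border release amino acids from filtered peptides. Of 9 genes for such peptidases and for peptide transporters 8 were tested, and 1 was called, Enpep, the glutamyl aminopeptidase. It had 31.6, 25.2 and 34.2 CPM in HFD-STZ DHZ, 12.6, 21.2 and 19.3 CPM in HFD-STZ vehicle and 13.9, 11.8 and 13.4 CPM in NCD vehicle, and the HFD-STZ DHZ libraries were the 3 highest. Enpep rose in HFD-STZ DHZ by a log2 fold change of 0.78 (SE 0.23, edgeR adjusted p = 0.030) against HFD-STZ vehicle and 1.22 (SE 0.23, edgeR adjusted p = 0.011) against NCD vehicle. The call against HFD-STZ vehicle was lost without any HFD-STZ DHZ replicate or without HFD-STZ vehicle replicate 1, and with unscaled library sizes or only the 2 groups compared. That against NCD vehicle was lost without HFD-STZ DHZ replicate 1 and with unscaled library sizes. Of all genes tested, 10.05% were called higher in HFD-STZ DHZ versus HFD-STZ vehicle and 6.31% versus NCD vehicle. List medians were 0.53 for HFD-STZ DHZ versus HFD-STZ vehicle, 0.06 for HFD-STZ vehicle versus NCD vehicle, with 0 called by edgeR and 1 at an unadjusted p below 0.05, and 0.52 for HFD-STZ DHZ versus NCD vehicle.

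The amino acid response, by which cells short of amino acids raise Slc38a2 and other genes through the factor Atf4, was read from 8 genes, of which 7 were tested. In HFD-STZ DHZ versus HFD-STZ vehicle 2 were called higher, Asns and Trib3, and 0 lower, and in HFD-STZ DHZ versus NCD vehicle 1 was called higher, Asns. The medians were 0.44 and 0.74, and 10.05% and 6.31% of all genes tested were called higher in these comparisons. In HFD-STZ vehicle versus NCD vehicle 0 were called by edgeR, 1 had an unadjusted p below 0.05, and the median was −0.18. Asns, the asparagine synthetase, had 2.68, 6.26 and 1.57 CPM in HFD-STZ DHZ, 0.87, 0.13 and 0.84 CPM in HFD-STZ vehicle and 0.27, 0.50 and 0.66 CPM in NCD vehicle. The 0.13 CPM was 1 count, and the other HFD-STZ vehicle and NCD vehicle libraries held 5 to 26 counts. HFD-STZ DHZ lay above both groups, by a log2 fold change of 2.35 (SE 0.58, edgeR adjusted p = 0.017) over HFD-STZ vehicle and 2.82 (SE 0.58, edgeR adjusted p = 0.014) over NCD vehicle.

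Trib3, a pseudokinase, had 0.65, 2.25 and 0.73 CPM in HFD-STZ DHZ and 0.38, 0 and 0.16 CPM in HFD-STZ vehicle, where the count of 0 in replicate 2 allows up to 0.405 CPM (3 counts, for counting error only). Its log2 fold change was 2.53 (SE 0.71, edgeR adjusted p = 0.026). Atf4 averaged 36.5 ± 8.15 CPM in HFD-STZ DHZ, 40.0 ± 5.71 in HFD-STZ vehicle and 37.6 ± 1.80 in NCD vehicle (SD, n = 3 each) and was not called. HFD-STZ DHZ replicate 2 held the highest value of Asns, Trib3 and Slc38a2, and without it neither Asns nor Trib3 was called in that group against HFD-STZ vehicle. Trib3 also lost its call without HFD-STZ vehicle replicate 3, and Asns lost its call against NCD vehicle without HFD-STZ DHZ replicate 1 or 2 or NCD vehicle replicate 1 and with unscaled library sizes.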

How the data were processed

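Messenger RNA of whole kidney was sequenced in 9 libraries, 3 per group, with groups taken from sample titles. The authors deposited whole-number read counts for every gene, not normalized, and 0 columns of other samples. RNA was captured by its poly(A) tail and made into stranded libraries, per the labels' protocols. STAR, Trim Galore and FastQC were applied with build GRCm39 (mm39), per the submitters' processing notes. The sources used here do not give versions, the counting program, its strand setting or the annotation. Symbols were matched by Ensembl identifier for 94.1% of the 55359 genes and all 129 listed genes. Exon lengths, overlaps and promoters came from references of build GRCm38, which differs from that of the counts.

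The counts were fitted with edgeR 4.0.16 under R 4.3.3: filterByExpr on group left 17179 genes, library sizes were scaled by TMM, and all 9 libraries entered 1 robust quasi-likelihood fit on group alone (6 residual degrees of freedom). F-test p-values (two-sided) were adjusted by Benjamini-Hochberg over the genes tested, and an adjusted p below 0.05 is termed a call. Standard errors (SE) of log2 fold changes come from the F statistic. CPM of a library are TMM-scaled. The pattern measure used log2 CPM with a prior count of 2. The scripts were tested on simulated data with known changes.

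The 10 genes and all lists were chosen with earlier results of these data known. All 10 were named, as were Cltrn, Hnf4a and Slc7a12, each gene called in the lists of other transporters, partners, peptidases and amino acid response, and the 5 genes nearest to Slc6a19 whose mean log2 CPM was 1 or more. Oxa1l, Prepl, 4430402I18Rik, Slc6a19os, Atf4 and the cell type and injury markers given were named outside this rule, after their values were seen. Some genes of the list of partners and regulators are not reported here, and the counts and medians of that list leave them out; the TATA box search was also chosen after values were seen. Alternatives were other scalings (relative log expression, unscaled library sizes), mitochondrial genes left out, DESeq2 1.42.0, no filter, only the 2 groups compared, a replicate block, a term for Y-linked transcripts, and each library left out in turn.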

Additional observations from a re-analysis of the deposited data

How the results depend on the processing

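Of the 10 transporter genes 4 were called in HFD-STZ DHZ versus HFD-STZ vehicle, and 2 were with only the 2 groups compared or with a term for Y-linked transcripts, the same as the lowest number with a library left out (2 to 4; 2 without HFD-STZ DHZ replicate 1 or 2, HFD-STZ vehicle replicate 1 or 2 or NCD vehicle replicate 3). In HFD-STZ vehicle versus NCD vehicle 1 was called, 0 with unscaled library sizes or only the 2 groups, 2 with DESeq2, without the filter or with the Y-linked term, and 0 to 1 with a library left out (0 without HFD-STZ DHZ replicate 2 or 3, HFD-STZ vehicle replicate 3 or any NCD vehicle replicate). In HFD-STZ DHZ versus NCD vehicle 0 were called, and 1, Slc7a13, without the filter or with the Y-linked term.

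Of the 31 other transporters 3 were called in HFD-STZ DHZ versus HFD-STZ vehicle, 1 with unscaled library sizes, 7 with DESeq2, 11 without the filter, 6 with the Y-linked term and 0 to 6 with a library left out (1 without HFD-STZ DHZ replicate 1, 0 without replicate 2 and 6 without HFD-STZ vehicle replicate 1). Those called in HFD-STZ DHZ versus NCD vehicle numbered 1, and 0 with unscaled sizes, 4 with DESeq2 or only the 2 groups, 3 without the filter, 2 with the Y-linked term and 0 to 3 with a library left out (3 when HFD-STZ vehicle replicate 2 was left out, 0 when any library of HFD-STZ DHZ or of NCD vehicle was). In HFD-STZ vehicle versus NCD vehicle 0 were called, and 3 without the filter, 1 higher and 2 lower.

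All genes called numbered 3796 for HFD-STZ DHZ versus HFD-STZ vehicle, of which 45.5% were higher, and 888 with unscaled library sizes, of which 93.7% were higher; leaving out a library gave 1149 to 4086, the lowest without HFD-STZ DHZ replicate 1 and 1302 without replicate 2. For HFD-STZ vehicle versus NCD vehicle 9 were called (44.4% higher), and 1276 had an unadjusted p below 0.05. The number was 29 with unscaled sizes (24.1% higher), 126 with DESeq2, 425 without the filter (56.2% higher), 3 with only the 2 groups, 42 with the Y-linked term and 2 to 28 with a library left out (28 without HFD-STZ vehicle replicate 1, and 2 to 4 without HFD-STZ DHZ replicate 2 or 3, HFD-STZ vehicle replicate 3 or any NCD vehicle replicate). For HFD-STZ DHZ versus NCD vehicle 2352 were called, 36 with unscaled sizes, 3530 with DESeq2, 3981 with only the 2 groups, 3617 with the Y-linked term and 112 to 3706 with a library left out (112 and 245 without HFD-STZ DHZ replicate 1 and 2, 259 and 779 without NCD vehicle replicate 1 and 2, and 3706 without HFD-STZ vehicle replicate 2).

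The replicate numbers were not taken to pair the libraries in the main fit. Deviations of same-numbered libraries from their group means correlated at −0.409 to 0.224. Differently numbered libraries were not compared, so these values cannot decide whether the numbers mark pairs. With the replicate number as a block, the 10 transporter genes gave 2 calls in HFD-STZ DHZ versus HFD-STZ vehicle and 0 in HFD-STZ vehicle versus NCD vehicle, the other transporters 0 in HFD-STZ DHZ versus NCD vehicle, and all genes 2159 for HFD-STZ DHZ versus HFD-STZ vehicle, 2 for HFD-STZ vehicle versus NCD vehicle and 772 for HFD-STZ DHZ versus NCD vehicle. The block also ended the calls of Slc3a1, Slc7a8, Asns, Trib3 and Enpep in HFD-STZ DHZ versus HFD-STZ vehicle, of Slc6a19 in HFD-STZ vehicle versus NCD vehicle and of Slc6a6 in HFD-STZ DHZ versus NCD vehicle. The cause of these differences was not tested. Of the transporter genes, Cltrn, Asns, Trib3 and Enpep, none that was called with all 9 libraries and TMM scaling changed sign under these alternatives. Slc7a13, not called there, had a log2 fold change of −2.41 for HFD-STZ DHZ versus NCD vehicle, and 3.91 without NCD vehicle replicate 1. Slc6a19 had its lowest count, 41, in HFD-STZ vehicle replicate 2, the library with the fewest nuclear protein-coding counts.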
